A study of Mus musculus with 3 samples.

Results

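The 45 cell cycle genes described here were chosen by symbol, as a module, from the 31053 genes of the count tables, and their unique molecular identifiers (UMIs, each standing for 1 captured mRNA molecule) were counted in classes of cells set by other genes. By role, 20 members were listed under G2 and M phase and 19 under G1/S and S phase. Another 4 are the D-type cyclins and *Cdk4*, and 2 are inhibitors of cyclin-dependent kinases. Stromal cells were those with at least 1% of their UMIs from *Col1a1*, *Col1a2*, *Col3a1*, *Dcn* and *Lum*. Of the remaining cells, macrophages had a UMI of *Csf1r* or *C1qa*, and lymphocytes a UMI of *Cd3e* or *Nkg7*. No member entered a class definition, so the values of the members were not used to choose the cells.

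A cell that enters division passes through G1, copies its DNA in S phase, and separates the copies in mitosis. D-type cyclins with Cdk4 act in G1 and answer to growth signals, cyclin E with Cdk2 leads into S phase, cyclin A spans S phase and G2, and cyclin B with Cdk1 drives mitosis. The proteins p21 (*Cdkn1a*) and p57 (*Cdkn1c*) hold cyclin-dependent kinases back, and in growing cartilage proliferation stops as chondrocytes enlarge.

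The libraries came from a mouse model of heterotopic ossification (HO), the formation of bone outside the skeleton, in which a Matrigel scaffold placed under the skin of female CD-1 mice aged 6 to 8 weeks was collected on day 5. Matrigel-only masses held no recombinant human BMP2 and these mice were given nothing by mouth. Vehicle masses held Matrigel with BMP2, a protein that induces cartilage and bone, and these mice received corn oil with DMSO by mouth. Palo masses held Matrigel with BMP2 as well, and these mice received palovarotene, an agonist of retinoic acid receptor gamma, at 4 mg/kg by mouth for 5 days. Vehicle and Palo thus share BMP2, and Matrigel-only differs from Vehicle both in BMP2 and in the oral dose of carrier.

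Each condition was 1 droplet library, so no difference between conditions could be tested against replicate spread, and every interval given is a 95% interval of counting error within these libraries. The intervals treat UMIs as independent although UMIs of 1 cell are not. After removal of barcodes with fewer than 200 or more than 6000 genes, or above 5% mitochondrial UMIs, 8728 Matrigel-only, 5478 Vehicle and 7297 Palo cells remained. Stromal cells numbered 2085, 1373 and 1184 in that order, macrophages 5805, 3212 and 5655, and lymphocytes 50, 228 and 44. Median UMIs per stromal cell were 9082, 17114 and 12955, per macrophage 3089, 3633 and 4252, and per lymphocyte 1439.5, 2045.5 and 2021.5. The libraries shared 51 barcodes between pairs and 0 in all 3. Each class held its own marker list: all 10 stromal markers and all 10 macrophage markers were found in at least 10% of the cells of their class, and 10 or 11 of 12 lymphocyte markers. The summed level of the erythroid markers *Hba-a1* and *Hbb-bs* in stromal cells was 6.13, 133 and 3.73 counts per 1000000 UMIs (CPM), and that of the macrophage list 937, 306 and 771. In macrophages the stromal list stood at 557, 652 and 382 and a dendritic cell list at 57.0, 143 and 63.2. The part of these other transcripts in the results was not tested.

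Promoters of the members are shown because the mitotic members moved together. The RefSeq promoter table for GRCm38.p6, which is the mm10 build, gave 300 bases, from 250 before to 50 after the start site, for 33 of the 45 members. The entries below were picked after motifs had been searched. *Ccnb2* (chr9:70421505-70421804, minus strand), *Cdc20* (chr4:118437294-118437593, minus strand) and *Cenpa* (chr5:30666636-30666935, plus strand) are among the mitotic members with higher stromal ratios. *Mcm5* (chr8:75109259-75109558, plus strand), a helicase subunit, is one of the S phase members. Capitals mark TTTGAA (the cell cycle homology region, CHR), CCAAT, and the E2F letters TTTCCCGC, TTTGGCGC, TTTGCCGC and TTTCGCGC, each read on both strands.
Ccnb2: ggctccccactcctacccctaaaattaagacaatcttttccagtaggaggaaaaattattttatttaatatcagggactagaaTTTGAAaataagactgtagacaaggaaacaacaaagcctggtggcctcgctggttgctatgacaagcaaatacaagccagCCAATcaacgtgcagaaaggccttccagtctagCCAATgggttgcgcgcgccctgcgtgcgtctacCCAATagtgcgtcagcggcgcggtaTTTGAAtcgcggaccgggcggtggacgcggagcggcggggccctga
Cdc20: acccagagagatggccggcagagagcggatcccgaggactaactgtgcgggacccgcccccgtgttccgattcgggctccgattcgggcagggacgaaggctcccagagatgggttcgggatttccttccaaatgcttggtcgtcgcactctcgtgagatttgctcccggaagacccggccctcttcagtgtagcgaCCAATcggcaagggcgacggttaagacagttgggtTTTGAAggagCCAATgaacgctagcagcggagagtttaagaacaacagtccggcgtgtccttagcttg
Cenpa: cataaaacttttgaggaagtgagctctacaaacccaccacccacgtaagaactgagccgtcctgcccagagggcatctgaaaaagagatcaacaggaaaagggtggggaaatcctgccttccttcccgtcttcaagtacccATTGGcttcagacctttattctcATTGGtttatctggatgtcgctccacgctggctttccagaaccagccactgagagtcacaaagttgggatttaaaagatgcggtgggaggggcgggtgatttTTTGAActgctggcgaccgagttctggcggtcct
Mcm5: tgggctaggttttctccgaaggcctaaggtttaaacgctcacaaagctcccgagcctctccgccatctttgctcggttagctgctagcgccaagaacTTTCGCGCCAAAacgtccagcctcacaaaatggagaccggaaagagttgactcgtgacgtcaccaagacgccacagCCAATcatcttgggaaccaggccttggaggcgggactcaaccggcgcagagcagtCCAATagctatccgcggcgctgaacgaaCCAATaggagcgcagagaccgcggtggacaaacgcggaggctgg
CHR letters stood in 11 of 15 promoters of G2 and M phase members (73.3%), in 3 of 16 of G1/S and S phase members (18.8%) and in 17.9% of all 32851 promoters in the table. CCAAT stood in 13 of 15 (86.7%), in 12 of 16 (75.0%) and in 37.4% of all promoters. E2F letters stood in 1 of 15 (*Cdk1*), in 6 of 16 (37.5%) and in 2.26% of all promoters. In *Mcm5* a pair of E2F matches overlapped on opposite strands. Promoters of *Ccnd3* and *Cdk4* held CHR and E2F letters 0 times in 3 entries, and *Cdkn1a* held none of the motifs in 2. Of the mitotic members, *Birc5* and *Nusap1* held none of the motifs in their entries. *Birc5* had a higher stromal log2 ratio of Vehicle over Matrigel-only than *Cdc20* and *Ccnb2* (0.88 against 0.82 and 0.75). A match of letters describes these windows and shows no binding.

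The summed level of a list is the share of its UMIs among all UMIs of the class, in CPM. All 45 members together stood at 1852, 2182 and 1956 CPM in stromal cells of Matrigel-only, Vehicle and Palo, the order kept wherever 3 values are listed. In macrophages they stood at 1757, 1395 and 1584 CPM. In lymphocytes they stood at 5808, 4093 and 6510 CPM, from 521, 2365 and 765 UMIs. Stromal cells were thus highest, and macrophages and lymphocytes lowest, in the Vehicle library. For macrophages this order depends on the class: with overlapping classes, in which every cell with a macrophage gene counts as one even where it also passes as stromal or lymphocyte, the log2 ratio of Palo over Vehicle turned from 0.18 to -0.056. The members of G2 and M phase carried most of these differences, as the plot of summed levels by role shows. In granulocytes of the Vehicle library, short-lived cells that no longer divide, the G2 and M phase list stood at 89.7 CPM (24.4 to 230, 4 UMIs, 61 cells).

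**Figure D1:**
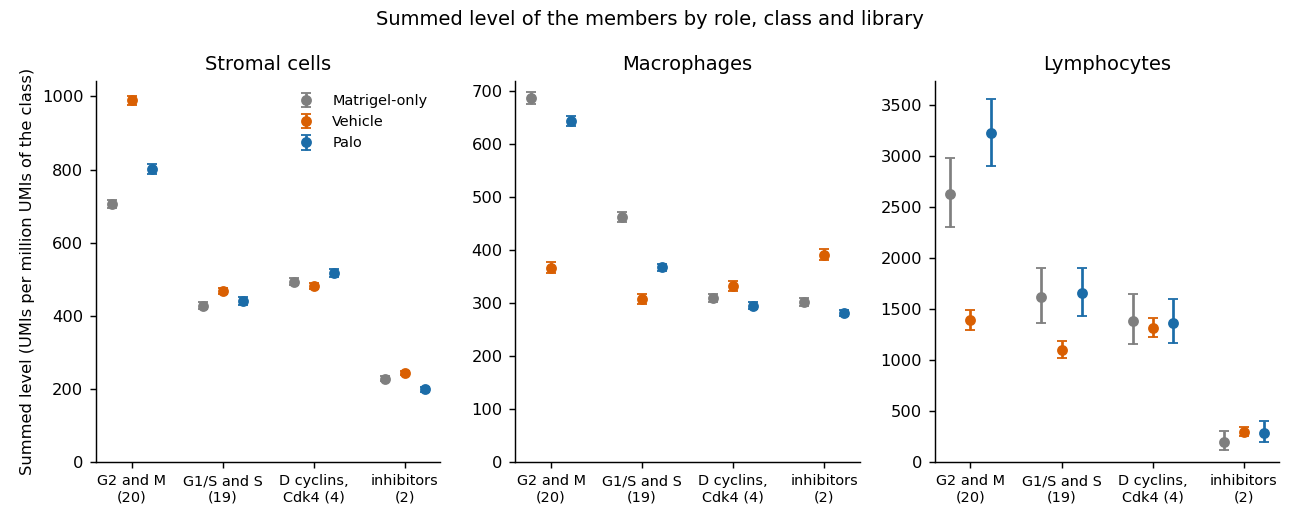
Summed level (CPM) of each group of members in stromal cells, macrophages and lymphocytes of the Matrigel-only, Vehicle and Palo libraries, with exact 95% Poisson intervals of the counts as bars. G2 and M phase members were at 705, 989 and 800 CPM in stromal cells and at 686, 366 and 643 CPM in macrophages.

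Summed over the stromal class, the genes of chromosome segregation were higher in Vehicle than in Matrigel-only, and lower in Palo than in Vehicle. The 20 G2 and M phase members summed to 705 CPM (693 to 717), 989 (976 to 1002) and 800 (787 to 815). Vehicle was therefore 1.40-fold above Matrigel-only (log2 0.49, 0.46 to 0.52), and Palo against Vehicle gave a log2 ratio of -0.31 (-0.34 to -0.27). Palo remained 1.14-fold above Matrigel-only (log2 0.18, 0.15 to 0.22). Cells with *Acan*, which Matrigel-only and Palo nearly lacked, held 15642 of the 23331 UMIs behind the Vehicle value. They were 56.7% of the Vehicle stromal cells. In cells with *Sox9* but no *Acan* the level was lowest in Vehicle, at 983, 750 and 839 CPM. The share of those cells with at least 2 members was highest in Vehicle. In the subsets with neither gene the value was highest in Vehicle. There at least 50.3% of the Vehicle UMIs lay in 5 cells of each subset, as described below. Directions of single genes, their medians and the 2-fold counts were taken after adding 5 CPM, over genes with at least 5 CPM in either library, while other folds and log2 ratios are of the levels with nothing added. Between Vehicle and Matrigel-only 19 of the 20 members were higher in Vehicle, where 46.1% of all 10755 genes were. Between Palo and Vehicle 18 of 20 were lower in Palo, where 51.0% of 10579 genes were higher in Palo.

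*Cenpa*, the histone H3 variant of centromeres, had the highest ratio of these, at 44.9, 94.1 and 56.5 CPM. *Birc5*, which encodes survivin of the chromosomal passenger complex, was at 46.6, 85.7 and 57.0 CPM. *Cdc20*, an activator of the anaphase-promoting complex, was at 26.5, 46.9 and 37.7 CPM. All 3 were highest in Vehicle with Palo between. The B-type cyclin gene *Ccnb2* was at 26.7, 44.9 and 34.2 CPM and *Ccnb1* at 19.8, 30.6 and 22.9. Their kinase *Cdk1* was at 46.0, 63.3 and 49.6 CPM, and *Ccna2*, for cyclin A2, at 30.2, 42.4 and 33.7. Cyclins and kinase kept the same order of libraries. The widely used proliferation markers moved less than these genes between Vehicle and Matrigel-only. *Mki67* was at 70.5, 95.6 and 83.4 CPM, and *Top2a*, a topoisomerase that untangles chromosomes, at 93.7, 108 and 84.6. *Top2a* in Palo was thus below Matrigel-only. For Palo over Vehicle *Mki67* again moved less, at log2 -0.20, but *Top2a* did not, at -0.36 beside -0.35 for *Cdk1*. *Stmn1*, whose product destabilises microtubules, took another order, at 31.7, 43.0 and 53.1 CPM, highest in Palo. *Aurkb*, the kinase of the passenger complex, was at 17.1, 16.3 and 16.2 CPM, with the interval of each ratio between libraries spanning 0, although its partner *Birc5* differed.

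**Figure D2:**
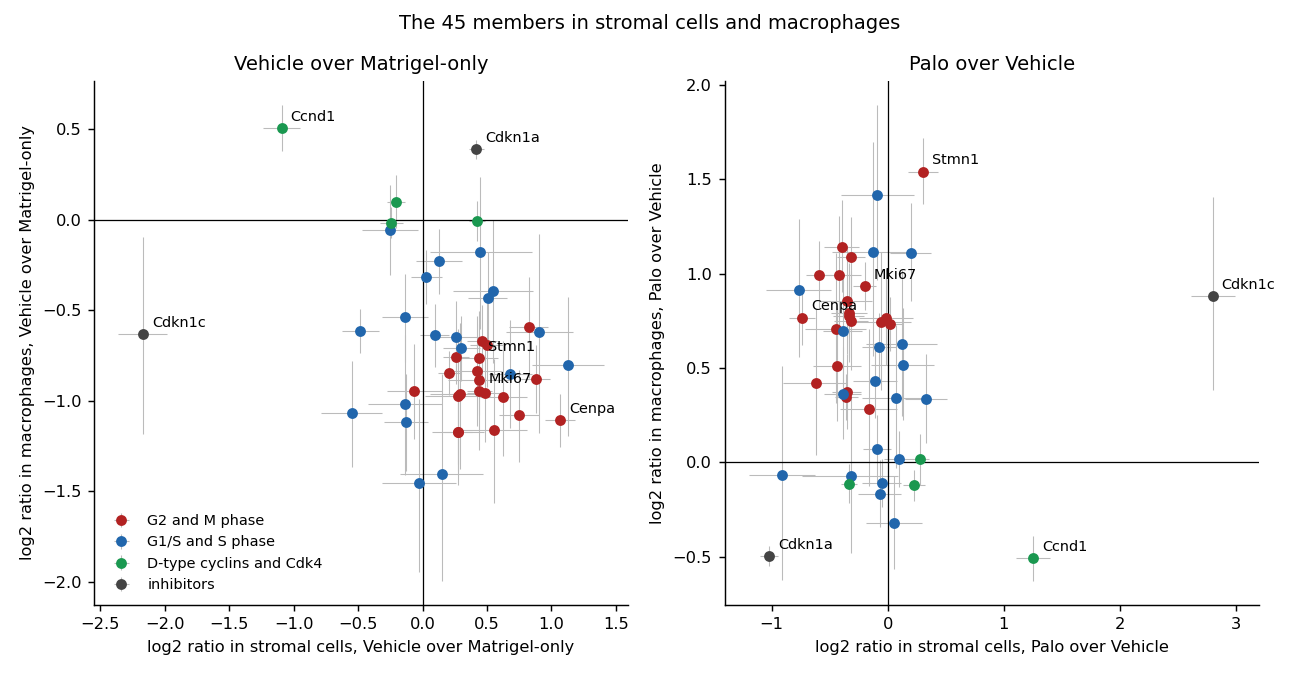
Log2 ratio of levels of each of the 45 members in stromal cells (x axis) against that in macrophages (y axis), for Vehicle over Matrigel-only (left) and Palo over Vehicle (right), coloured by role, with 95% intervals of counting error as grey lines. In the left panel 19 of the 20 G2 and M phase members lie right of and below 0, and *Ccnd1* lies at -1.09 in stromal cells and 0.51 in macrophages.

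Members listed under G1/S and S phase differed less in stromal cells. The 19 G1/S and S phase members summed to 427, 468 and 439 CPM, log2 ratios of 0.13 (0.09 to 0.17) and -0.09 (-0.13 to -0.05). By gene, 12 were higher and 7 lower in Vehicle than in Matrigel-only. *Ccne2*, for cyclin E2, was at 8.93, 16.7 and 8.91 CPM, and the linker histone gene *Hist1h1b* at 7.48, 16.3 and 9.60. *Rrm2*, a subunit of ribonucleotide reductase, was at 22.3, 35.7 and 27.4 CPM. These 3 were highest in Vehicle. *Pcna*, the sliding clamp of DNA polymerase, went the other way at 43.1, 30.9 and 29.8 CPM, as did *Cdk2* at 16.8, 11.5 and 12.6. Helicase subunits took different orders: *Mcm2* was at 17.8, 14.9 and 15.5 CPM and *Mcm5* at 21.9, 26.3 and 24.4. Their log2 ratios of Vehicle over Matrigel-only were -0.26 and 0.26. *Ccne1*, for cyclin E1, was at 6.88, 10.1 and 10.5 CPM.

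In stromal cells few members passed a 2-fold ratio after adding 5 CPM, and none of these was mitotic. With nothing added *Cenpa* and *Hist1h1b* had log2 ratios of 1.07 and 1.13 for Vehicle over Matrigel-only, past 2-fold. With TMM scaling *Cenpa* also passed after adding 5 CPM. In the main setting *Cdkn1c* was lower by at least 2-fold in Vehicle than in Matrigel-only, 1 of 45 members, beside 7.04% of all genes lower and 3.68% higher, with 0 members higher. Between Palo and Vehicle *Ccnd1* and *Cdkn1c* were higher by at least 2-fold, 2 of 45, beside 4.4% of all genes higher and 3.73% lower, with 0 members lower. Between Palo and Matrigel-only it was 0 of 44 in either direction, beside 0.277% higher and 0.946% lower. These shares of members are near those of all genes, so the stromal difference was one of many small ratios. The median log2 ratio of the members was 0.24 for Vehicle over Matrigel-only, with -0.04 over all genes, and -0.12 for Palo over Vehicle, with 0.01 over all genes.

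The share of cells with mitotic transcripts gave the same order. Because Vehicle stromal cells were deeper, each cell was thinned to 3100 UMIs, which left 1878, 1303 and 1130 cells and dropped 207, 70 and 54 shallower ones. At that depth 12.6% (11.2 to 14.2) of Matrigel-only, 26.4% (24.0 to 28.9) of Vehicle and 16.1% (14.0 to 18.4) of Palo stromal cells had at least 2 of the G2 and M phase members. Without thinning the shares were 16.7%, 43.8% and 27.8%. The difference was 13.8 percentage points (11.0 to 16.6) between Vehicle and Matrigel-only and -10.3 points (-13.5 to -7.06) between Palo and Vehicle. With the stromal threshold at 5% of UMIs in place of 1% these differences were 7.83 and -4.23 points. Cells with at least 10 mitotic UMIs after thinning made up 5.96%, 11.0% and 7.96%. Among cells with at least 2 mitotic members, the mean was 11.5, 9.85 and 12.0 UMIs of the list per cell, so more Vehicle cells carried these transcripts but each did not carry more. Averaging each cell's own level in place of summing UMIs raised the log2 ratio of Vehicle over Matrigel-only to 0.85.

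**Figure D3:**
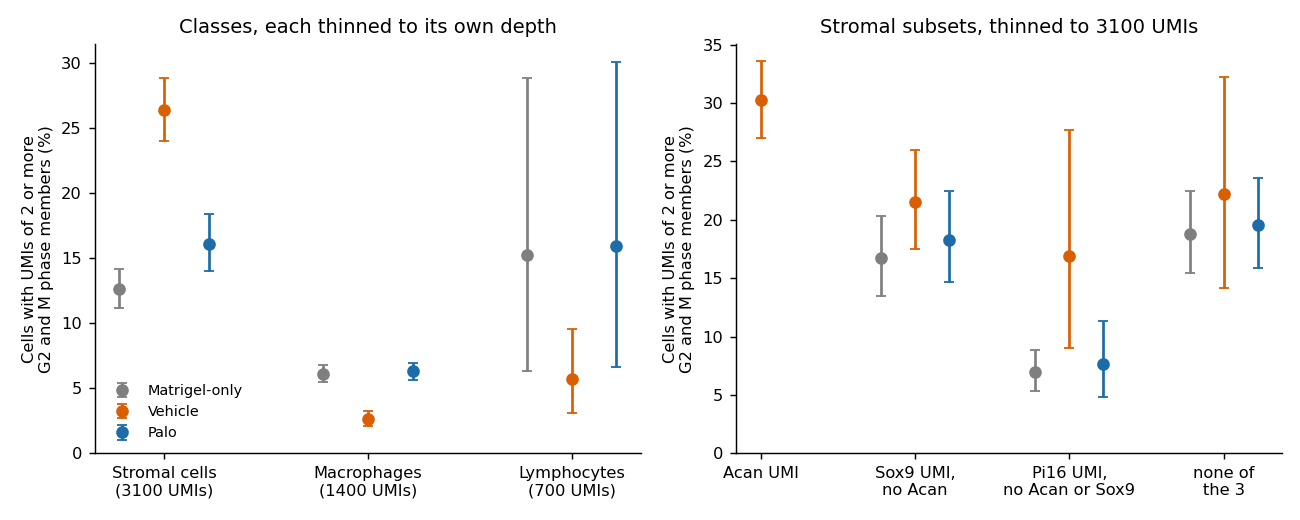
Share of cells (%) with at least 2 of the 20 G2 and M phase members after thinning, by class (left) and by stromal subset (right) and library, with exact 95% binomial intervals as bars; *Acan* cells are drawn for Vehicle alone. Vehicle stands at 26.4% in stromal cells, above the other libraries, and at 2.64% in macrophages, below them.

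The share with at least 2 of all 45 members was less telling. It was 66.2%, 76.0% and 71.3% in thinned stromal cells and 33.6%, 31.1% and 30.5% in thinned macrophages, against 87.5%, 95.1% and 94.4% and 60.2%, 65.9% and 68.4% without thinning. At 500 UMIs, the depth granulocytes allow, 8 of 61 Vehicle granulocytes (13.1%) passed it, beside 8.69% of Vehicle macrophages and 21.3% of Vehicle stromal cells. Granulocytes had a median of 651 UMIs and an inhibitor level of 1233 CPM. Of the 89 UMIs of members in these granulocytes 55 were of inhibitors and 24 of D-type cyclins or *Cdk4*. The share with at least 2 of 45 thus counts cells outside division too, and no order of macrophage libraries is read from it. For the G2 and M phase list it was 0 of 61 granulocytes, where 3 counts would be 4.92% and the exact interval reaches 5.87%, beside 10.2% of Vehicle stromal cells and 1.37% of Vehicle macrophages at the same depth. The stromal share lay above these limits and the macrophage share below them.

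Stromal cells were split by detected transcripts into cells with *Acan* (aggrecan, of cartilage matrix), those with *Sox9* (a chondrogenic transcription factor) but no *Acan*, those with *Pi16* (a marker of fibroblast progenitors) but neither of these, and those with none of the 3. *Acan* cells were 779 in Vehicle, 56.7% of its stromal cells, but 1 in Matrigel-only and 4 in Palo. G2 and M phase members stood at 1123 CPM in the Vehicle *Acan* cells, and 30.2% of these cells had at least 2 after thinning. They exceeded the Vehicle *Sox9* cells, at 750 CPM, by log2 0.58. They also held 15642 of the 23331 UMIs of the list in Vehicle stromal cells. They were most of that class, with a median of 17327 UMIs per cell beside 17114 over the class. The Vehicle value thus rests largely on a subset that the other libraries nearly lack, in part through its size.

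In *Sox9* cells (493, 391 and 405) the G2 and M phase list was at 983, 750 and 839 CPM, while the share with at least 2 members was 16.7%, 21.5% and 18.3%. Level and share gave opposite orders here, so no order of libraries is read. In *Pi16* cells (1012, 80 and 312) the list was at 408, 901 and 499 CPM and the share was 6.95%, 16.9% and 7.67%. In the 80 Vehicle *Pi16* cells, 65.5% of the list's UMIs lay in 5 cells and 23.0% in 1. Cells with none of the 3 genes (579, 123 and 463) were at 849, 937 and 889 CPM with shares of 18.8%, 22.2% and 19.5%. Here 50.3% of the Vehicle UMIs lay in 5 cells and 17.3% in 1. The intervals of the Vehicle level (889 to 986 CPM) and the Palo level (866 to 912) overlapped. Those of the shares overlapped too, at 15.4% to 22.5%, 14.1% to 32.2% and 15.9% to 23.6%. Over all 45 members, *Sox9* cells exceeded *Pi16* cells by log2 0.93 in Matrigel-only and 0.57 in Palo, and by 0.06 (-0.01 to 0.14) in Vehicle. When detection was called after thinning the Vehicle value was -0.35.

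In macrophages, phagocytes that in part renew by division at sites of inflammation, the order was the opposite. G2 and M phase members summed to 686 CPM (674 to 697), 366 (356 to 376) and 643 (633 to 652). The log2 ratio of Vehicle over Matrigel-only was -0.91 (-0.95 to -0.86), and that of Palo over Vehicle 0.81 (0.77 to 0.86). All 20 members were lower in Vehicle than in Matrigel-only, where 49.9% of 9895 genes were higher. All 20 were higher in Palo than in Vehicle, where 32.0% of 9787 genes were. Palo and Matrigel-only differed by log2 -0.09, which became 0.09 with TMM scaling, so no direction is read between them.

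The class limits bear on this result. Macrophages exclude cells with at least 1% stromal UMIs, of which 480, 364 and 329 carried a macrophage gene. With those cells counted as macrophages too, the log2 ratios were -0.20 and 0.11 in place of -0.91 and 0.81, of the same direction but smaller. The median gene also differed from 0: the median log2 ratio of all macrophage genes was -0.14 for Palo over Vehicle and -0.14 for Palo over Matrigel-only. With TMM scaling, which shifts every ratio by 0.19 for Palo over Vehicle, the mitotic ratio was 1.01.

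*Mki67* was at 85.8, 44.6 and 85.2 CPM in macrophages. *Cenpa* was at 77.4, 35.9 and 61.1 CPM and *Ccnb2* at 25.7, 12.1 and 26.8. The kinetochore gene *Cenpf* was at 38.5, 17.0 and 36.2 CPM. All 4 were lowest in Vehicle. For *Top2a*, at 96.7, 53.8 and 68.4 CPM, and *Cdk1*, at 33.4, 21.0 and 27.2, Palo lay between the other libraries. *Stmn1* was at 38.7, 22.8 and 66.2 CPM, highest in Palo as in stromal cells. *Cenpa* was the member lower by at least 2-fold in Vehicle than in Matrigel-only (1 of 43), beside 1.24% of all genes lower and 2.66% higher, with 0 members higher. *Stmn1* was the member higher by at least 2-fold in Palo than in Vehicle (1 of 44), beside 0.92% higher and 3.17% lower, with 0 members lower. With TMM scaling *Mki67*, *Ccnb2*, *Birc5* and *Cenpf* passed too. Between Palo and Matrigel-only it was 0 of 44, beside 0.454% higher and 0.711% lower.

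The G1/S and S phase list in macrophages was at 461, 306 and 367 CPM, log2 ratios of -0.59 (-0.64 to -0.54) and 0.26 (0.21 to 0.31). All 18 members with at least 5 CPM were lower in Vehicle than in Matrigel-only, and 14 of 18 were higher in Palo than in Vehicle. *Pcna* was at 87.1, 56.9 and 52.8 CPM, so that Palo stayed near Vehicle. *Mcm5* was at 32.2, 20.5 and 27.7 CPM and *Mcm2* at 16.7, 16.0 and 12.8. *Tk1*, the salvage thymidine kinase, was at 24.0, 11.1 and 23.9 CPM. For Palo over Vehicle *Pcna* had a log2 ratio of -0.11 and *Tk1* of 1.11, or 0.09 and 1.30 with TMM scaling. The order of Vehicle and Palo for *Pcna* thus depended on the scaling. Palo lay below Matrigel-only by log2 -0.33 over the list, or -0.15 with TMM scaling.

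After thinning to 1400 UMIs, 6.09% of 5239 Matrigel-only, 2.64% of 2912 Vehicle and 6.31% of 5518 Palo macrophages had at least 2 G2 and M phase members, against 10.4%, 7.72% and 13.7% without thinning. The difference was -3.44 points (-4.30 to -2.55) for Vehicle against Matrigel-only and 3.66 points (2.77 to 4.51) for Palo against Vehicle. With stromal cells that carry a macrophage gene counted too these were -1.57 and 1.67 points. Palo and Matrigel-only differed by 0.218 points (-0.697 to 1.13). Stromal cells held more of the list than macrophages by 2.70-fold in Vehicle, 1.25-fold in Palo and 1.03-fold in Matrigel-only.

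Lymphocytes, which divide upon activation, had the highest level of the mitotic list in each library, at 2620 CPM (2295 to 2977), 1390 (1295 to 1489) and 3217 (2900 to 3558). This was 3.82-, 3.80- and 5.00-fold above macrophages. Vehicle was below Matrigel-only by a log2 ratio of -0.91, and Palo exceeded Vehicle by 1.21. *Mki67* was at 346, 202 and 553 CPM and *Top2a* at 479, 258 and 477. Only 50 and 44 cells stood behind the outer values, and 3 UMIs of a gene correspond to 33.4 and 25.5 CPM there. The share with at least 2 mitotic members after thinning to 700 UMIs was 15.2% (6.34 to 28.9), 5.73% (3.08 to 9.59) and 15.9% (6.64 to 30.1). The difference was -9.49 percentage points (-22.7 to -0.94) for Vehicle against Matrigel-only and 10.2 points (1.33 to 23.8) for Palo against Vehicle. After thinning to 500 UMIs these differences were -3.18 (-14.2 to 2.86) and 4.27 points (-2.31 to 16.5). Without thinning they were -5.04 (-18.0 to 3.96) and 11.8 points (0.81 to 26.4). The directions stayed the same, but whether an interval held 0 depended on the depth. By share, lymphocytes were not highest in every library. At 700 UMIs the share was 7.07%, 13.3% and 8.74% in stromal cells and 4.34%, 1.99% and 4.49% in macrophages. Vehicle lymphocytes thus lay below Vehicle stromal cells. In lymphocytes *Ccnd2* at 680, 825 and 859 CPM and *Ccnd3* at 546, 356 and 391 made up most of the D-type cyclin level. *Ccnd1* and *Cdkn1c* each had 0, 3 and 0 UMIs, at or below that floor.

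The D-type cyclins and *Cdk4* summed to nearly the same level across stromal libraries, 493, 482 and 518 CPM, but single genes differed. *Ccnd1* (chr7:144929931-144939925), for cyclin D1, was at 54.5, 25.5 and 60.8 CPM, with nothing added 2.13-fold lower in Vehicle than in Matrigel-only and 2.38-fold higher in Palo than in Vehicle. After adding 5 CPM the first of these was log2 -0.96, short of 2-fold. *Cdk4* was instead highest in Vehicle, at 166, 222 and 177 CPM. *Ccnd2* was at 167, 144 and 176 CPM and *Ccnd3* at 106, 89.3 and 105, both lowest in Vehicle. By subset, *Acan* cells of Vehicle held 12.1 CPM of *Ccnd1*. *Sox9* cells were at 107, 39.4 and 76.8 CPM and *Pi16* cells at 17.4, 8.34 and 25.6, lowest in Vehicle in both, from 8 UMIs in the latter. The cells with none of the 3 genes were at 55.3, 92.5 and 64.3, highest in Vehicle. In macrophages *Ccnd1* was highest in Vehicle, at 49.4, 70.2 and 49.4 CPM. There *Ccnd3* (134, 133 and 122), *Cdk4* (81.9, 81.5 and 75.4) and *Ccnd2* (43.7, 46.8 and 47.3) stayed close, and the small ratios of *Ccnd3* and *Cdk4* for Palo over Vehicle changed sign with TMM scaling.

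The inhibitors took opposite orders in stromal cells. *Cdkn1c* (chr7:143458339-143461050) was at 54.5, 12.1 and 84.6 CPM, 4.49-fold lower in Vehicle than in Matrigel-only and 6.98-fold higher in Palo than in Vehicle. *Cdkn1a* (chr17:29090976-29100727) was at 173, 231 and 114 CPM, 2.03-fold lower in Palo than in Vehicle with nothing added and log2 -0.99, short of 2-fold, after adding 5 CPM. *Cdkn1c* was detected in 25.5%, 10.1% and 41.5% of stromal cells. Within *Sox9* cells *Cdkn1c* was at 53.8, 11.9 and 61.8 CPM and in cells with none of the 3 genes at 45.9, 5.74 and 80.6. In *Pi16* cells it was at 61.1, 65.7 and 136, so the low Vehicle level was absent there. *Cdkn1a* was highest in Vehicle in *Sox9* cells (181, 246 and 120) and in *Pi16* cells (119, 199 and 59.7), but not in cells with none of the 3 genes (241, 226 and 134). It was lowest in Palo in each of these subsets. In macrophages *Cdkn1a* was at 296, 388 and 275 CPM, with the same order as in stromal cells, and *Cdkn1c* was at 4.72, 3.05 and 5.62, near the 5 CPM minimum.

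**Figure D4:**
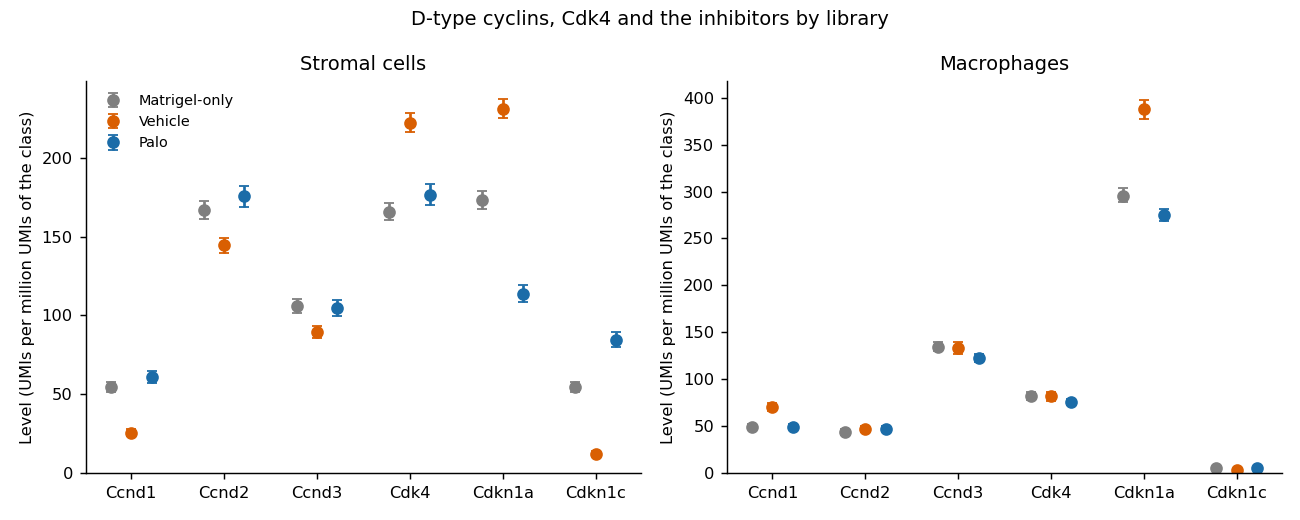
Level (CPM) of the D-type cyclins, *Cdk4* and the inhibitors *Cdkn1a* and *Cdkn1c* in stromal cells (left) and macrophages (right) of each library, with exact 95% Poisson intervals as bars. Stromal *Cdkn1c* is at 12.1 CPM in Vehicle and 84.6 in Palo, and stromal *Ccnd1* at 25.5 and 60.8.

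How far a member is confined to cells with mitotic transcripts was described by the percentage of its UMIs found in cells with at least 3 G2 and M phase members other than itself. Such cells were 272 (13.0%), 481 (35.0%) and 244 (20.6%) of the stromal cells. They were deeper than the rest, with medians of 13634.5, 19399 and 16289.5 UMIs against 8666, 15609 and 12586.5. In stromal cells the median over the mitotic members was 97.1% (84.8 to 98.9), over the G1/S and S phase members 71.0% (41.5 to 98.7), over D-type cyclins and *Cdk4* 33.5%, and over inhibitors 18.6%, where the median of the 11024 genes with at least 200 UMIs was 29.7%. The values for mitotic members describe the list itself. Among S phase members *Esco2*, an acetyltransferase of cohesin, reached 98.7% and *Hist1h1b* 97.4%, while *Pcna* was at 54.9% and *Cdk2* at 41.5%. Pooled over libraries, *Ccnd2* was at 22.0%, *Cdkn1a* at 24.4%, *Cdkn1c* at 12.7% and *Ccnd1* at 42.6%. These pooled values mix libraries in which such cells held 19.5%, 40.5% and 25.3% of all stromal UMIs, and by library *Cdkn1c* was at 7.78%, 29.7% and 13.1%. *Cdkn1a* was at 20.3%, 28.5% and 19.8%.

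**Figure D5:**
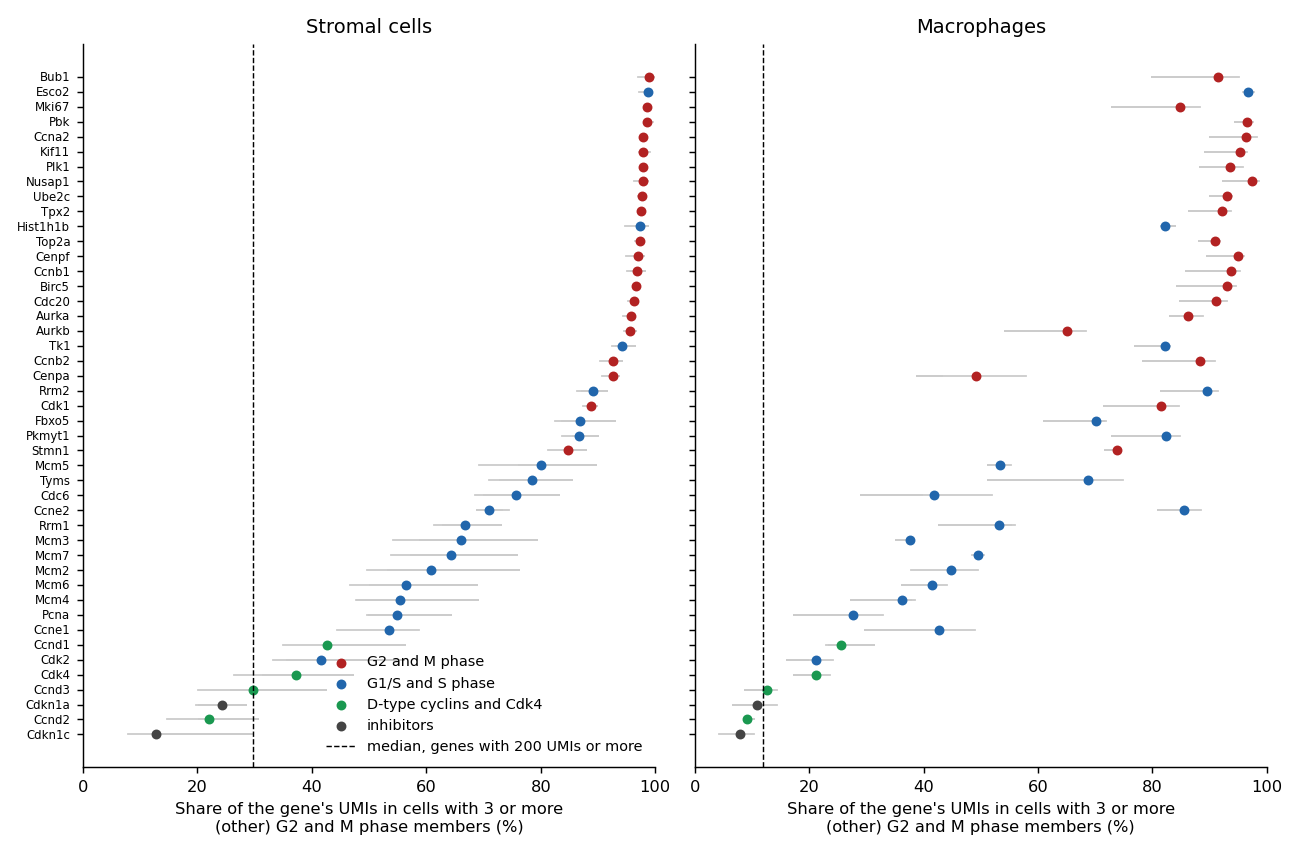
Percentage of each member's UMIs found in cells with at least 3 G2 and M phase members, itself not counted, in stromal cells (left) and macrophages (right), coloured by role. Points pool the libraries, grey lines span the lowest to the highest library, and dashed lines mark the median of genes with at least 200 UMIs, 29.7% and 11.9%; stromal mitotic members lie between 84.8% and 98.9%, and *Cdkn1c* at 12.7%.

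In macrophages the same medians were 91.8%, 53.2%, 17.0% and 9.42%, where the median gene of 10225 had 11.9%. *Cenpa* was at 49.1% and *Aurkb* at 65.1% there, beside 92.6% and 95.5% in stromal cells. Cells were not thinned for this measure, and macrophages were shallower than stromal cells. Macrophages with at least 3 such members held 12.0%, 8.40% and 12.6% of all macrophage UMIs. Values of the 2 classes are therefore not read against each other. Levels within cells with at least 3 such members gave a like picture for *Mcm5* and *Cdkn1c*. Stromal *Mcm5* was 13.2-, 12.8- and 6.64-fold higher in such cells than in the others. Stromal *Cdkn1c* was 2.87-, 1.61- and 2.23-fold lower in them. *Cdkn1a* varied, with log2 ratios of such cells over the others of 0.07 (-0.05 to 0.19), -0.77 and -0.46 in stromal cells. In macrophages these were -0.20, -0.36 and 0.23. *Ccnd1* in Vehicle macrophages was at 263 CPM in these cells and 52.6 CPM in the others, a 4.99-fold ratio, beside 2.26-fold in Matrigel-only and 2.07-fold in Palo. Such macrophages numbered 383, 116 and 433. Their median UMIs were 6058, 9548 and 7387, against 2969.5, 3544.5 and 4099 in the others. The genes outside every list with the highest values in stromal cells were *Depdc1a*, *Pimreg*, *Knl1*, *Neil3*, *Ska1*, *Cep55*, *Cdca5*, *Mxd3*, *Ncapg* and *Iqgap3*, from 99.3% down to 97.3%. In macrophages they were *Kif18b*, *Kif14*, *Pimreg*, *Aspm*, *Spag5*, *Ska1*, *Sgo1*, *Mxd3*, *Neil3* and *Prr11*, from 97.1% down to 94.2%. *Pimreg*, *Neil3*, *Ska1* and *Mxd3* stood in both sets.

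S phase and mitotic transcripts met in part of the cells. Of thinned stromal cells with at least 2 G1/S and S phase members, 50.0% (Matrigel-only), 62.0% (Vehicle) and 43.9% (Palo) showed at least 2 mitotic members as well. In macrophages the values were 33.3%, 24.8% and 43.4%. Stromal cells with mitotic members alone were 4.10%, 12.1% and 6.90% of all, and those with S phase members alone 8.52%, 8.75% and 11.8%. The share with mitotic members alone thus covered a wider range across libraries than that with S phase members alone.

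Of other genes of the pathway, 85 in 4 lists that hold no member, the mitotic list moved in stromal cells as the mitotic members did. Of 30 further mitotic genes, 28 were higher and 2 lower in Vehicle than in Matrigel-only stromal cells (median log2 0.31), and 2 higher and 28 lower in Palo than in Vehicle (-0.21). The DNA-packing genes *H2afz* (304, 689 and 380 CPM) and *Hmgb2* (106, 217 and 129 CPM) led in both contrasts, and both are also expressed outside division. They passed 2-fold for Vehicle over Matrigel-only, beside 3.68% of all genes higher, but not for Palo over Vehicle. Of 24 replication genes tested, 17 were higher and 7 lower for Vehicle over Matrigel-only (0.10), and 12 were higher and 12 lower for Palo over Vehicle (0.01). *Gmnn*, for the licensing inhibitor geminin, was at 14.8, 23.9 and 17.7 CPM.

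Regulators of the cycle split. Of 24 tested in stromal cells, 13 were higher and 11 lower in Vehicle than in Matrigel-only. The INK4 inhibitor genes *Cdkn2b*, at 6.88, 55.3 and 17.4 CPM, and *Cdkn2a*, at 1.90, 15.7 and 6.38, were highest in Vehicle. The antiproliferative gene *Btg2* (38.2, 12.0 and 35.0 CPM), the stress gene *Gadd45a* (16.1, 4.20 and 11.1) and *Cdk6* (40.7, 27.2 and 61.9) were lowest there. The related genes *Btg1* and *Gadd45b* went the other way between Vehicle and Matrigel-only. Both were higher in Vehicle, among the regulators with the highest ratios. The 4 immediate early genes were all lower in Vehicle than in Matrigel-only (median log2 -1.13) and all higher in Palo than in Vehicle (1.32). *Egr1* was at 140, 28.2 and 138 CPM and *Fos* at 158, 69.1 and 154. Immediate early genes are induced by growth signals and by stress.

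In macrophages 28 of 29 further mitotic genes tested were lower in Vehicle than in Matrigel-only (median log2 -0.63) and 26 of 26 higher in Palo than in Vehicle (0.49). *Kif23*, a kinesin of cytokinesis, was at 34.1, 13.2 and 24.4 CPM. Of the replication genes 20 of 22 were lower in Vehicle than in Matrigel-only (-0.33) and 17 of 20 higher in Palo than in Vehicle (0.21). *Cdkn2c*, for the INK4 inhibitor p18, was at 19.6, 5.46 and 17.7 CPM and *Foxm1*, a transcription factor of mitotic genes, at 9.69, 3.62 and 9.41, both lowest in Vehicle. In stromal cells the levels of *Foxm1* lay close together, at 13.6, 12.2 and 13.2 CPM, and no order of libraries is read from them.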

How the data were processed

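Droplet single-cell RNA-seq of day 5 masses was analysed, with 1 library for each of 3 conditions. Per the labels and the study's methods, the authors processed reads with Cell Ranger 3.0.2 against mm10 and deposited raw UMI counts per gene and barcode, and their later Seurat 3 steps, which included regressing out the cell cycle, are not in these counts. Annotation of gene positions here is GENCODE vM21. The number of columns left without a sample was 0.

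Cells with 200 to 6000 genes and at most 5% mitochondrial UMIs were kept, as in the study. Classes were made exclusive in the order stromal, then macrophage or lymphocyte, and cells with both immune definitions or with none were left out of these. Granulocytes, a comparison group, were cells outside the stromal class with at least 1% of UMIs from *S100a8* and *S100a9*. They could also hold a macrophage or lymphocyte gene and so be counted in those classes too. No doublets were removed in the main analysis; as an alternative, the cells with the highest Scrublet scores (scanpy 1.11.5), 0.8% per 1000 cells, were left out. Levels are counts per 1000000 UMIs with exact Poisson intervals, shares have exact (Clopper-Pearson) intervals and their differences Newcombe intervals, and ratios have conditional binomial intervals. Before shares were taken, each cell was thinned by a seeded hypergeometric draw to 3100 UMIs (stromal), 1400 (macrophage), 700 (lymphocyte, and the classes compared with it) or 500 (granulocyte comparison). With 1 library per condition no test was possible. Scripts ran in Python 3.11.15 (matplotlib 3.10.9, pandas 2.3.3, scipy 1.17.1, numpy 2.4.6), and TMM factors came from edgeR 4.0.16 in R 4.3.3 as an alternative scaling. The ratio and thinning steps were tested on simulated counts.

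The members, class rules, marker lists and pathway lists were chosen with earlier results of these data known. Any member could be named; among other pathway genes the 5 with the largest ratios in each direction could be, and, outside every list, the 10 genes most confined to cells with mitotic transcripts (at least 200 UMIs).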

Additional observations from a re-analysis of the deposited data

Results flagged for a closer look

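Results are given here because stromal cells and macrophages of the same libraries moved in opposite directions. Each condition is 1 library, so the difference between the classes was not tested, and values are the log2 ratio in stromal cells minus that in macrophages. For Vehicle over Matrigel-only the difference was 1.39 for the G2 and M phase members, 0.72 for the G1/S and S phase members and 0.57 for all 45. For *Ccnd1*, the cyclin D1 gene, it was -1.60, since *Ccnd1* was lower in Vehicle stromal cells and higher in Vehicle macrophages.

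For Palo over Vehicle the difference was -1.12 for the G2 and M phase members, -0.35 for the G1/S and S phase members and -0.34 for all 45. It was 1.76 for *Ccnd1*, 0.35 for *Ccnd3* and 0.28 for the D-type cyclins with *Cdk4*. With TMM scaling the macrophage ratios of *Ccnd3* and of the D-type cyclins with *Cdk4* became 0.07 and 0.02, so that both classes then had ratios above 0. With overlapping classes, in which every cell with a macrophage gene counts as one, the macrophage ratio of all 45 members for Palo over Vehicle was -0.056, the same sign as in stromal cells, and that of the G2 and M phase members was 0.11 in place of 0.81. The mitotic and *Ccnd1* ratios kept their opposite directions with TMM scaling.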

How the results depend on the processing

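No paired analysis was possible because each condition has 1 library. Across 25 results and 174 alternatives, 98 values stayed within counting error, 72 moved beyond it, 3 of them to the other sign from a value whose interval held 0, and 4 turned direction; the causes were not tested. The order of values below is Vehicle over Matrigel-only, then Palo over Vehicle, as log2 ratios of summed levels unless said. With no upper limit on genes, the 45 members gave 0.36 and -0.27 in stromal cells and -0.29 and 0.14 in macrophages, and the G2 and M phase members 0.63 and -0.46, and -0.81 and 0.72. With TMM scaling the 45 members gave 0.31 and -0.20 (stromal), 0.38 for Palo over Vehicle (macrophages), and -0.29 and 0.51 (lymphocytes), and the mitotic members 0.56 and -0.34 (stromal) and 1.01 for Palo over Vehicle (macrophages). Averaging each cell's own level gave 0.40 and -0.19, -0.24 and 0.14, and -0.18 and 0.47 for the 45 members in stromal cells, macrophages and lymphocytes, and 0.85 and -0.36, and -1.07 and 1.11 for the mitotic members in stromal cells and macrophages.

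With overlapping classes the 45 members gave -0.081 and -0.056 in macrophages, the second turning direction, and -0.15 and 0.39 in lymphocytes, and the mitotic members gave -0.20 and 0.11 in macrophages. With at least 2 UMIs of *Csf1r* and *C1qa* the macrophage values were -0.38 and 0.23 for the 45 members and -0.96 for the mitotic members, Vehicle over Matrigel-only. Stromal cells with no macrophage gene gave 0.26 for the 45 members, Vehicle over Matrigel-only, and -0.24 for the mitotic members, Palo over Vehicle. The 5% stromal threshold gave -0.11 for the 45 members, Palo over Vehicle.

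Differences of shares, in percentage points, moved as follows. The share of stromal cells with at least 2 of 45 members differed between Vehicle and Matrigel-only by 13.5 without macrophage genes and 4.01 at 2 times the depth. Between Palo and Vehicle it was -1.04 without the highest Scrublet scores, -0.69 without thinning and 1.64, turning direction, with the 5% threshold. For mitotic members the stromal differences were 7.83 and -4.23 with the 5% threshold and 27.2 and -16.1 without thinning. Vehicle against Matrigel-only was 17.1 at 2 times the depth and 10.9 for 3 or more members. In macrophages the share with at least 2 of 45 turned direction for Vehicle against Matrigel-only, to 0.47 with overlapping classes and 5.72 without thinning. Palo against Vehicle was -3.31 without the highest Scrublet scores, -3.72 with overlapping classes, 2.47 without thinning, -3.77 at 2 times the depth and 1.92 for 3 or more members. The mitotic share gave -1.57 and 1.67 with overlapping classes, -6.76 and 4.90 at 2 times the depth, and 5.93, Palo against Vehicle, without thinning.

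Members past the fold in stromal cells, Vehicle over Matrigel-only, numbered 1 in the main setting, 4 with 1 CPM added, 8 at 1.5-fold and 2 with TMM scaling. Of these 0, 2, 6 and 1 were higher, with *Cenpa* among them in each of these settings but the main one. Of all genes 3.68%, 5.03%, 8.88% and 4.05% were higher and 7.04%, 10.0%, 14.0% and 6.56% lower. For Palo over Vehicle 2 members were past it in the main setting and 5 at 1.5-fold. Beside these, 4.4% and 10.3% of all genes were higher and 3.73% and 8.20% lower. In macrophages, Vehicle over Matrigel-only, members past the fold numbered 1 in the main setting, 8 with 1 CPM added and 22 at 1.5-fold, all lower. Of all genes 1.24%, 2.65% and 5.14% were lower and 2.66%, 3.99% and 6.76% higher. For Palo over Vehicle they numbered 1 in the main setting, 5 with 1 CPM added, 13 at 1.5-fold and 5 with TMM scaling, all higher. Of all genes 0.92%, 1.83%, 3.63% and 1.45% were higher there and 3.17%, 5.00%, 9.12% and 2.38% lower. *Sox9* over *Pi16* cells gave 0.81, 0.27 and 0.46 in Matrigel-only, Vehicle and Palo with each gene on its own, and 0.76, -0.35 and 0.26 with detection after thinning. Depth limits lymphocytes more than stromal cells and macrophages: 3 UMIs are 33.4 CPM in Matrigel-only and 25.5 CPM in Palo lymphocytes.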

Other observations

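Stromal barcodes with more than 6000 genes, left out of the report, numbered 15, 99 and 21 in the Matrigel-only, Vehicle and Palo libraries. After thinning to 3100 UMIs, 86.7%, 61.6% and 57.1% of them had at least 2 G2 and M phase members, against 12.6%, 26.4% and 16.1% of the stromal cells within the limit. Of these barcodes 8, 45 and 12 carried a UMI of *Csf1r* or *C1qa*. An upper limit on genes therefore left out stromal barcodes rich in mitotic transcripts in each library, and most of them in Vehicle. Their status as doublets was not tested.

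Mitotic UMIs were unevenly spread over cells. After thinning, 94.1%, 95.1% and 94.0% of the G2 and M phase UMIs of stromal cells lay in cells with at least 2 of the members, and 77.3%, 63.6% and 80.2% of those of macrophages. In the 4 *Acan* cells of Palo, 1 cell held 250 of 261 UMIs of the list.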
